A study of Bos taurus with 10 samples.

Results

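Milk fat leaves the mammary epithelial cell as a lipid droplet wrapped in plasma membrane, and lactose is built in the Golgi of the same cell and exported in vesicles. The 6 genes described here, MFGE8, MUC1, XDH, PLIN2, B4GALT1 and FOLR1, were chosen by name, out of 4366 genes with a named element on the arrays. All but FOLR1 encode proteins of these routes. MFGE8 (lactadherin) is a secreted glycoprotein that binds lipid membranes, MUC1 is a mucin of the apical cell surface, XDH (xanthine dehydrogenase) is an enzyme of purine breakdown that is also a structural protein of the milk fat globule membrane, and PLIN2 (perilipin 2, or adipophilin) coats lipid droplets. B4GALT1 is the Golgi galactosyltransferase that, joined by alpha-lactalbumin, forms lactose synthase. FOLR1 is a folate receptor anchored in the cell membrane, and folate-binding protein is also found in milk.

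Gene expression had been measured on 10 two-colour cDNA microarrays of cow tissue taken at peak lactation. The groups were mammary gland, liver and 3 fat depots (mesenteric, omental and subcutaneous adipose), and every sample shared the stage of peak lactation, so there was no dry or non-lactating control. Each tissue was 1 RNA sample on 2 arrays, in Cy3 on the first and in Cy5 on the other, against a common reference standard mixed from tissues. The labels used here give no breed, no age and no number of animals, and do not say whether the 5 tissues came from the same cow.

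A level is the log2 ratio of tissue over reference, centred on the median of its array, so it compares tissues for 1 gene and not genes with each other. A level of 0 is the median of the array and does not mean that tissue and reference were equal. The direction of the ratio is likely rather than stated in the labels, and in the opposite direction every sign given here would turn. In the direction used, the hepatocyte marker TF was at 3.67 in liver and from -2.25 to -1.01 elsewhere. The other measured hepatocyte marker, APOA1, was highest in subcutaneous adipose tissue. Of 10 measured epithelial markers, 5 were at least 2-fold higher in mammary gland than the mean of the other tissues and none 2-fold lower. The ± is the distance of each dye orientation from the mean of both and covers labelling and hybridisation only. With 1 RNA sample per tissue no test between tissues is possible. A gene is counted when its difference is at least 2-fold (1 on the log2 scale) with the same sign in both dye orientations. Names were given to elements through a print layout rebuilt from the agreement of clones of 1 gene, a search that left out the 6 genes. Of 16416 spots, 15970 to 16245 had a value on each array. Precision is limited by having 2 arrays per tissue. In whole tissue, fewer cells of a type and less RNA per cell cannot be told apart.

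All 6 genes had their highest level in mammary gland. MFGE8, PLIN2, MUC1 and B4GALT1 stood far above each of the other 4 tissues, XDH stood above them by a smaller margin over liver, and FOLR1 stood above the adipose depots but was close to its level in liver. Against the mean of the 4 other tissues all 6 genes were past the 2-fold rule, where 2.41% of 4307 named genes were higher in mammary gland and 6.25% lower. The median of the 6 differences was 2.94 on the log2 scale, against -0.06 for all named genes. By size of this difference the 6 genes took places between 2 and 25 of 4307, counted from the highest. They were chosen with earlier results of these data known, so these places describe them and are no test. The split of all counted genes was 104 higher to 269 lower with median centring and 129 to 200 after quantile normalisation.

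**Figure D1:**
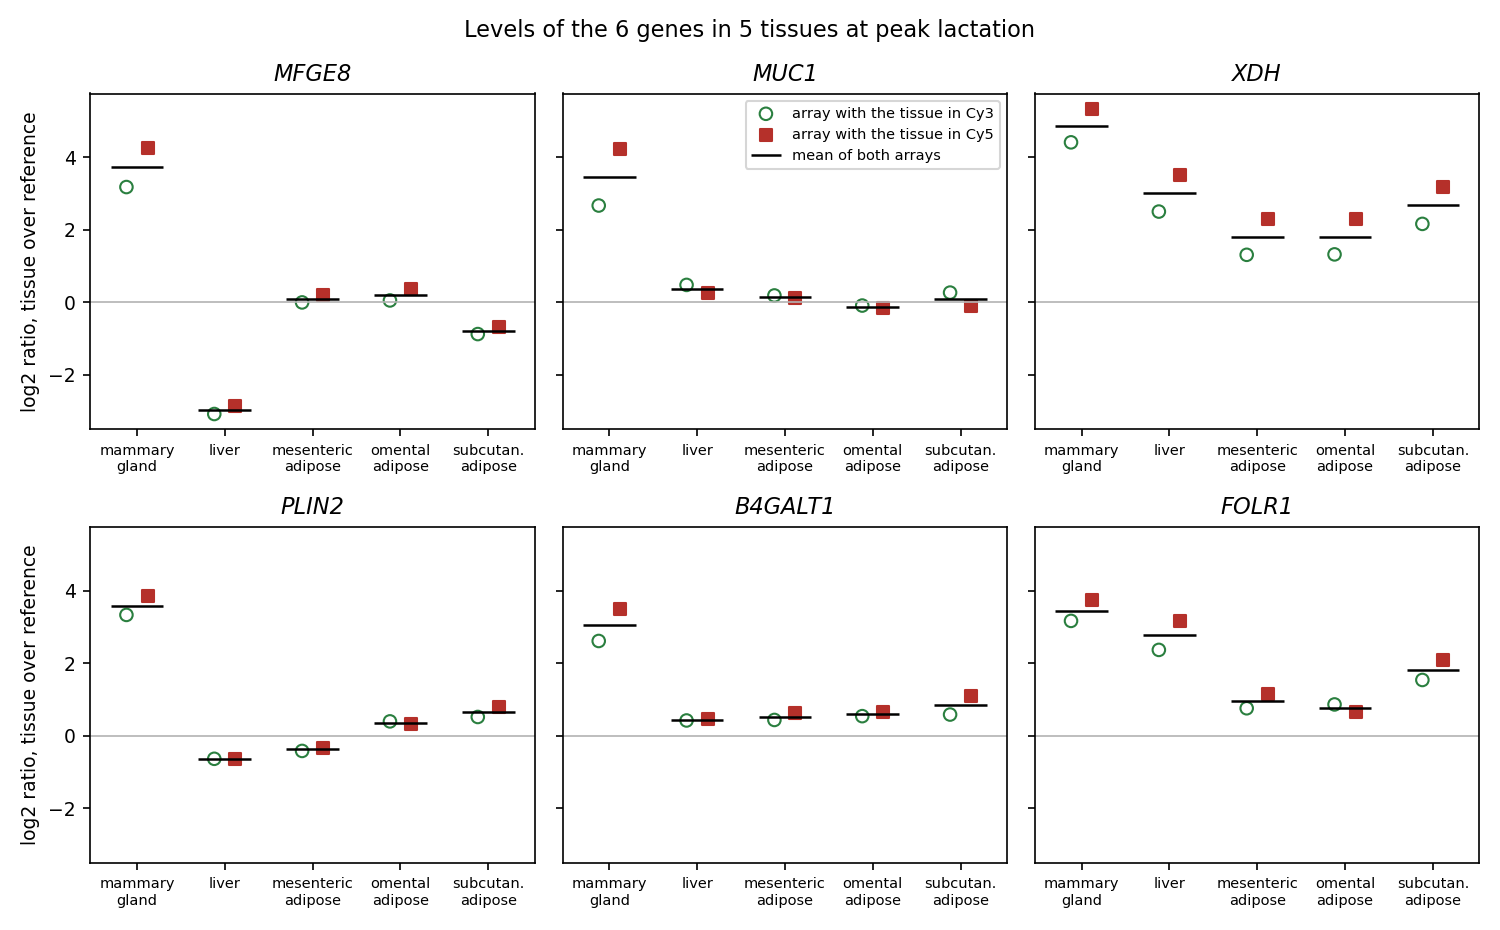
Level (log2 ratio of tissue over reference, vertical axis) of each gene in 5 tissues, centred on the array median, with circles for the array carrying the tissue in Cy3, squares for the array carrying it in Cy5 and a bar for their mean. The mammary gland mean is the highest in every panel, from 3.05 for B4GALT1 to 4.87 for XDH, and the FOLR1 panel has liver close behind at 2.76.

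Of the fat globule proteins, MFGE8 differed most between tissues. Its level in mammary gland was 3.17 with the tissue in Cy3 and 4.25 with the tissue in Cy5, against -3.08 and -2.85 in liver. It was -0.01 and 0.19 in mesenteric, 0.05 and 0.36 in omental, and -0.88 and -0.69 in subcutaneous adipose tissue. The mammary gland arrays were the highest and the liver arrays the lowest, with no overlap between either tissue and any other. Mammary gland exceeded liver by 6.68 ± 0.43 on the log2 scale, a 103-fold difference and the highest of 4325 genes in that comparison. It exceeded mesenteric adipose tissue by 3.62 ± 0.44, omental by 3.51 ± 0.38 and subcutaneous by 4.50 ± 0.45. In the order of levels the neighbours omental and mesenteric adipose tissue overlapped, and each other pair of neighbours was apart.

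PLIN2, the droplet coat protein, had levels of 3.33 and 3.84 in mammary gland (Cy3 and Cy5), against -0.64 and -0.65 in liver. It stood at -0.42 and -0.34 in mesenteric, 0.39 and 0.31 in omental, and 0.51 and 0.79 in subcutaneous adipose tissue. The array values of no tissue overlapped with those of its neighbour in the order, which ran from mammary gland through subcutaneous, omental and mesenteric adipose tissue to liver. Single spots did overlap outside mammary gland. The liver spots in Cy3 were at -0.20 and -1.08, the first of them within the range of the mesenteric spots in Cy5, -0.12 and -0.56, and an omental spot in Cy3 at 0.60 was above a subcutaneous spot in Cy3 at 0.43. Mammary gland exceeded liver by 4.23 ± 0.26 (18.8-fold), mesenteric adipose tissue by 3.97 ± 0.22, omental by 3.23 ± 0.30 and subcutaneous by 2.93 ± 0.12. Among the fat depots, mesenteric minus omental adipose tissue was -0.73 ± 0.08, under the 2-fold rule.

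MUC1, the apical mucin, was high in mammary gland and near the array median in each other tissue. Its levels were 2.66 and 4.23 in mammary gland (Cy3 and Cy5), against 0.47 and 0.25 in liver, 0.18 and 0.12 in mesenteric, -0.09 and -0.16 in omental, and 0.26 and -0.10 in subcutaneous adipose tissue. The lower mammary gland array was above all 8 arrays of the other tissues. Mammary gland exceeded liver by 3.09 ± 0.90 (8.49-fold), mesenteric adipose tissue by 3.29 ± 0.82, omental by 3.57 ± 0.82 and subcutaneous by 3.37 ± 0.97. The size differed between dye orientations. Against the mean of the 4 other tissues it was 2.46 with the tissue in Cy3 and 4.20 with the tissue in Cy5, and its error of 0.87 lay above the 95th percentile of the same error over all named genes, 0.44. The duplicate spots of MUC1 on the mammary gland arrays lay close together, at 2.63 and 2.69 in Cy3 and at 4.30 and 4.16 in Cy5, so the gap lay between the arrays and not between spots. Below mammary gland, both liver arrays lay above those of mesenteric adipose tissue, and the depots overlapped with their neighbours in the order. Liver overlapped with subcutaneous adipose tissue, whose Cy3 array at 0.26 was just above the liver array in Cy5 at 0.25. Single spots of liver and mesenteric adipose tissue overlapped too, with a mesenteric spot in Cy5 at 0.32 above a liver spot in Cy5 at 0.19.

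XDH was above the array median on every array. Its levels were 4.40 and 5.33 in mammary gland (Cy3 and Cy5), against 2.50 and 3.52 in liver, 1.30 and 2.30 in mesenteric, 1.32 and 2.28 in omental, and 2.16 and 3.18 in subcutaneous adipose tissue. The Cy5 array was higher by 0.93 to 1.02 in all 5 tissues, an offset of nearly the same size that cancels in each difference. Mammary gland exceeded liver by 1.86 ± 0.05 (3.63-fold), mesenteric adipose tissue by 3.07 ± 0.03, omental by 3.07 ± 0.02 and subcutaneous by 2.20 ± 0.05. These are the narrowest errors of the 6 genes for liver, mesenteric and omental adipose tissue. FOLR1 had a narrower one for subcutaneous adipose tissue. Mammary gland lay apart from all other tissues, and liver, subcutaneous, mesenteric and omental adipose tissue overlapped with their neighbours in the order when both orientations were pooled.

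**Figure D2:**
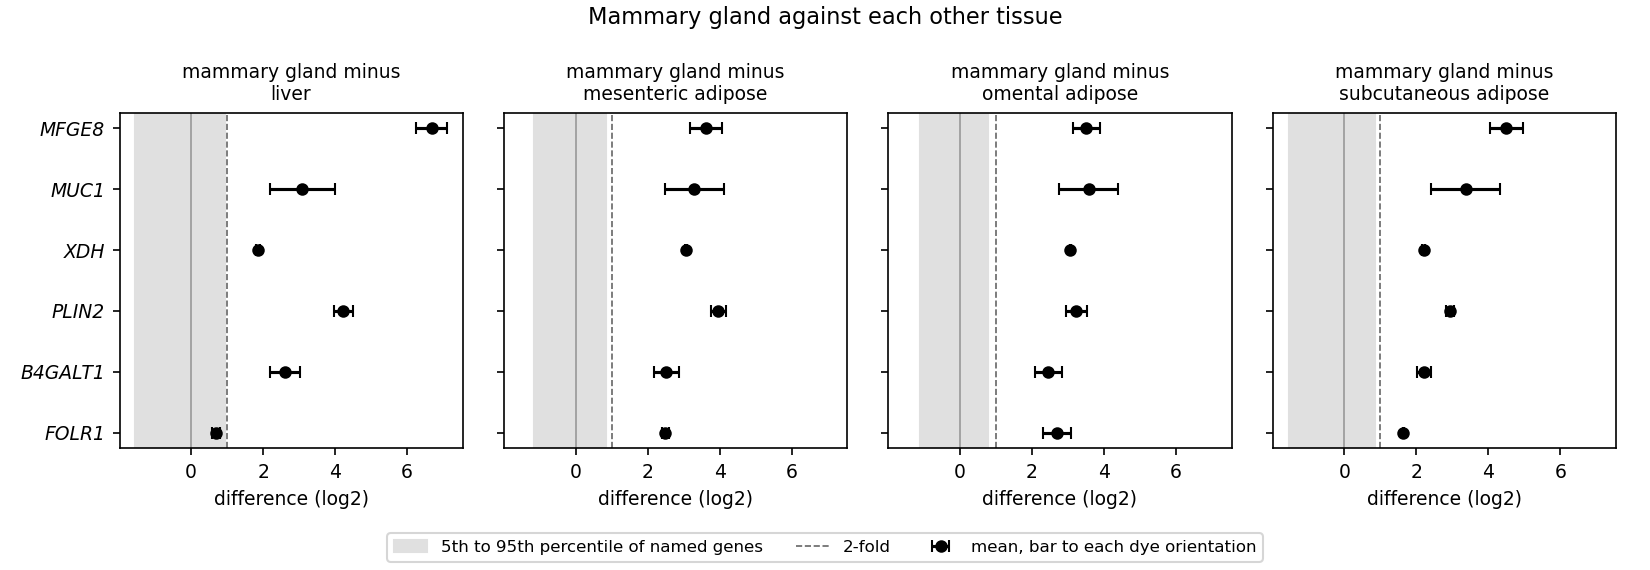
Difference of mammary gland minus each other tissue (log2, horizontal axis) for the 6 genes, as points with bars for the distance of each dye orientation from their mean, a dashed line at 2-fold and a grey band over the 5th to 95th percentile of named genes. All points lie to the right of the dashed line except FOLR1 against liver, at 0.68, and the MUC1 bars are the widest in each panel.

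B4GALT1, the catalytic part of lactose synthase, was the 1 gene of the 6 with more than 1 clone on the arrays. The mean of its 3 clones was 2.61 and 3.49 in mammary gland (Cy3 and Cy5), against 0.42 and 0.47 in liver, 0.43 and 0.61 in mesenteric, 0.54 and 0.66 in omental, and 0.58 and 1.09 in subcutaneous adipose tissue. Mammary gland was apart from the other tissues, which overlapped with their neighbours in the order. Mammary gland exceeded liver by 2.61 ± 0.41 (6.09-fold), mesenteric adipose tissue by 2.53 ± 0.35, omental by 2.45 ± 0.38 and subcutaneous by 2.21 ± 0.18.

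The B4GALT1 clones did not all give the same size. Against the mean of the 4 other tissues, clone 1 differed by 3.10 ± 0.49, clone 2 by 1.09 ± 0.39 and clone 3 by 3.16 ± 0.12. The direction was the same for all 3 clones, and the mean of the clones lies below the value of both clones that nearly coincide. Clone 2 taken alone was under the rule against omental adipose tissue, at 0.88 ± 0.40. It was just past the rule against liver (1.18 ± 0.43), mesenteric (1.15 ± 0.53) and subcutaneous adipose tissue (1.15 ± 0.19). Duplicate spots of clone 2 lay further apart, with a median gap of 0.38 and a highest gap of 1.27, against medians of 0.07 and 0.09 for clones 1 and 3. On the mammary gland array in Cy3 its spots were at 1.47 and 0.64, against 0.81 and -0.21 on the liver array in Cy3.

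**Figure D3:**
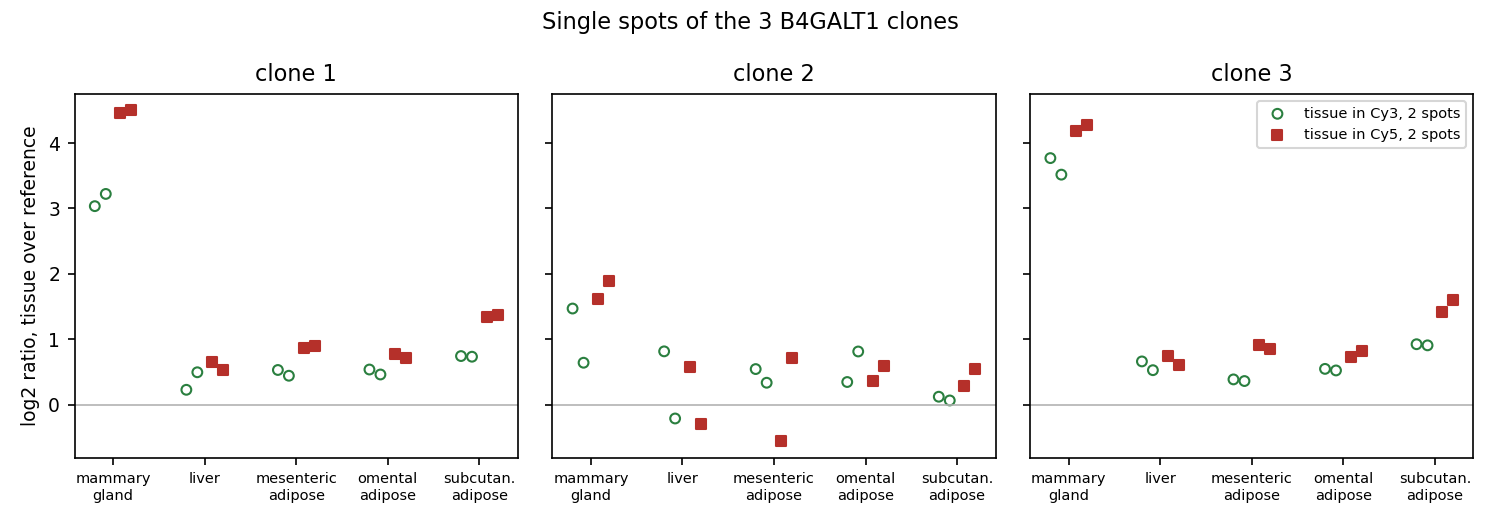
Single spots (log2 ratio of tissue over reference, vertical axis) of the 3 B4GALT1 clones in 5 tissues, with 2 circles per tissue for the array in Cy3 and 2 squares for the array in Cy5. Clones 1 and 3 have mammary gland means of 3.81 and 3.94 and tight spots, and clone 2 has a mean of 1.40 and scattered spots.

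FOLR1, the folate receptor, was high in mammary gland and in liver. Its levels were 3.16 and 3.73 in mammary gland (Cy3 and Cy5), against 2.36 and 3.16 in liver, 0.75 and 1.15 in mesenteric, 0.86 and 0.64 in omental, and 1.53 and 2.09 in subcutaneous adipose tissue. Mammary gland and liver overlapped across dye orientations, although mammary gland was higher within each. The difference was 0.68 ± 0.12 on the log2 scale (1.61-fold), under the 2-fold rule, and took place 387 of 4325 genes from the highest. It was 1.41, past the rule, after quantile normalisation. Duplicate spots of FOLR1 on the mammary gland array in Cy5 lay at 3.14 and 4.32, and the lower spot is within the range of the liver spots in Cy5, 3.20 and 3.13. Against the adipose depots FOLR1 was past the rule each time, by 2.50 ± 0.09 for mesenteric, 2.70 ± 0.39 for omental and 1.64 ± 0.01 for subcutaneous adipose tissue. The related receptor gene FOLR2 had another profile, with levels of 0.60 in mammary gland, 0.57 in liver, 0.68 in mesenteric, 0.78 in omental and 1.64 in subcutaneous adipose tissue.

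By comparison, 5 of the 6 genes were past the rule in mammary gland against liver, where 4.44% of named genes were higher in mammary gland. All 6 were past it against mesenteric (3.72% of named genes), omental (3.26%) and subcutaneous adipose tissue (3.6%), and against the mean of the 3 depots (2.88%). The shares lower in mammary gland, which would be the ones to read with the ratio in the opposite direction, were 9.34% against liver, 6.51% against mesenteric, 6.45% against omental and 10.3% against subcutaneous adipose tissue, and 6.72% against the mean of the 3 depots. These comparisons share the mammary gland arrays and are not independent of each other. The split of counted genes moved with the centring. Against liver it was 192 higher to 404 lower with centring and 301 to 303 without, against mesenteric adipose tissue 161 to 282 and 316 to 158, and against subcutaneous adipose tissue 156 to 448 and 78 to 947. Against the mean of the 3 depots it was 124 to 290, and 154 to 219 after quantile normalisation. The 6 genes kept their direction in each of these settings.

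On the mammary gland arrays the Cy5 level exceeded the Cy3 level for all 6 genes, by 0.51 to 1.57. The same held for 34 of the 35 named genes whose mammary gland level was 2 or more, with a median gap of 1.02. For MUC1, MFGE8, B4GALT1 and PLIN2 the gap was wider in mammary gland than in any other tissue, at 1.57 for MUC1 against -0.37 to -0.06 elsewhere and at 1.08 for MFGE8 against 0.19 to 0.31. Differences between mammary gland and other tissues were larger in Cy5 for all genes but XDH, and against liver they were smaller in Cy5 for FOLR1 too. The part of the dye in these sizes was not tested.

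Outside mammary gland, the genes separated liver from fat in opposite directions. MFGE8 averaged -2.97 in liver and -0.16 in the 3 depots, a difference of -2.81 ± 0.00, past the rule, which 6.06% of named genes passed on that side. FOLR1 averaged 2.76 in liver and 1.17 in the depots, a difference of 1.59 ± 0.28, past the rule, which 7.28% of named genes passed on that side. XDH at 0.92 ± 0.01 and PLIN2 at -0.85 ± 0.05 were just under 2-fold, and MUC1 at 0.33 ± 0.03 and B4GALT1 at -0.21 ± 0.11 were further from it. XDH was at 1.08, past the rule, when the omental array in Cy5 was left out, and PLIN2 was at -1.11, past it, without centring. The split of all counted genes was 315 higher in liver to 262 lower with centring and 232 to 435 without.

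Between fat depots none of the 6 genes passed the rule. Subcutaneous minus the mean of mesenteric and omental adipose tissue gave 0.96 ± 0.23 for FOLR1, 0.87 ± 0.02 for XDH, 0.67 ± 0.14 for PLIN2 and -0.93 ± 0.03 for MFGE8, each with the same sign in both orientations and each under 2-fold. B4GALT1 stood at 0.28 ± 0.18 and MUC1 at 0.07 ± 0.15. In that comparison 9.95% of named genes passed in either direction. The count of the 6 genes was 3 without centring, where all genes had a median difference of 0.64, and the split of all counted genes, 270 higher to 161 lower with centring, was then 858 to 40. Without centring 20.7% of named genes passed in either direction. Mesenteric minus omental adipose tissue gave -0.73 ± 0.08 for PLIN2 and between -0.11 and 0.28 for the other 5 genes, and 1.41% of named genes passed in either direction, 36 higher to 25 lower with centring and 19 to 74 without. Without centring PLIN2 was at -1.05, past the rule.

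Other genes of the same routes were mostly under the rule in mammary gland against the mean of the 4 other tissues. In the milk fat globule list 2 of 7 measured genes were past the rule above the mean of the 4 other tissues and none below (median 0.50, against -0.06 for all genes). RAB18, a small GTPase of lipid droplets, stood at 1.77 ± 0.15 with levels of 2.05 in mammary gland and 0.11 to 0.39 in the other 4 tissues. CD59, an inhibitor of complement anchored in the membrane, stood at 1.02 ± 0.31, with a level of 1.95 in mammary gland against 3.33 in liver, so it was higher in liver than in mammary gland. In the lactose list 1 of 7 measured genes was past the rule (median -0.11). SLC2A1, the glucose transporter GLUT1, stood at 1.57 ± 0.10, with its 2 clones at 1.66 and 1.48, and B4GALT3, a related galactosyltransferase, at 0.81 ± 0.18, under the rule. Against subcutaneous adipose tissue alone 0 of these 7 genes were past the rule. SLC2A1 was at 0.33 in mammary gland and -0.64 in that depot.

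Of the folate list 0 of 7 measured genes were past the rule above the other tissues and 1 below (median -0.13). MTHFD1, an enzyme of folate metabolism in the cytosol, stood at -1.11 ± 0.65, with a level of -1.14 in mammary gland and 2.11 in liver, while SLC19A1, the reduced folate carrier, stood at 0.62 ± 0.05. Of 6 measured genes of purine breakdown and salvage 1 was above and 1 below (median 0.15). HPRT1, which salvages hypoxanthine, stood at 1.74 ± 0.15, with levels of 1.17 in mammary gland and 0.36 in omental adipose tissue, less than 2-fold apart. AOX1, aldehyde oxidase and a relative of XDH, stood at -1.03 ± 0.04, with a level of 0.98 in mammary gland against 4.87 in liver. AOX1 and XDH therefore placed mammary gland and liver in opposite order.

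Of the lipid droplet list 0 of 7 measured genes were past the rule in either direction (median -0.38). CIDEA, a protein of droplet growth, stood at 0.81 ± 0.09, with levels of 1.84 in mammary gland and 1.81 in omental adipose tissue, and LIPE, hormone-sensitive lipase, at -0.66 ± 0.24. Of the milk protein list only SPP1 (osteopontin) was measured and named, at 3.69 ± 0.12, with its 2 clones at 4.94 and 2.44. SPP1 is also a macrophage gene, and its level was 2.88 in mammary gland and 2.51 in subcutaneous adipose tissue. The other 9 genes of that list, caseins and alpha-lactalbumin among them, were not analysed here. Among 3 measured hormone receptors and regulators none was past the rule. AKT1 stood at 0.53 ± 0.27 and SREBF1, a regulator of lipid synthesis, at 1.07 ± 2.06, with opposite signs in the dye orientations (list median 0.53).

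**Figure D4:**
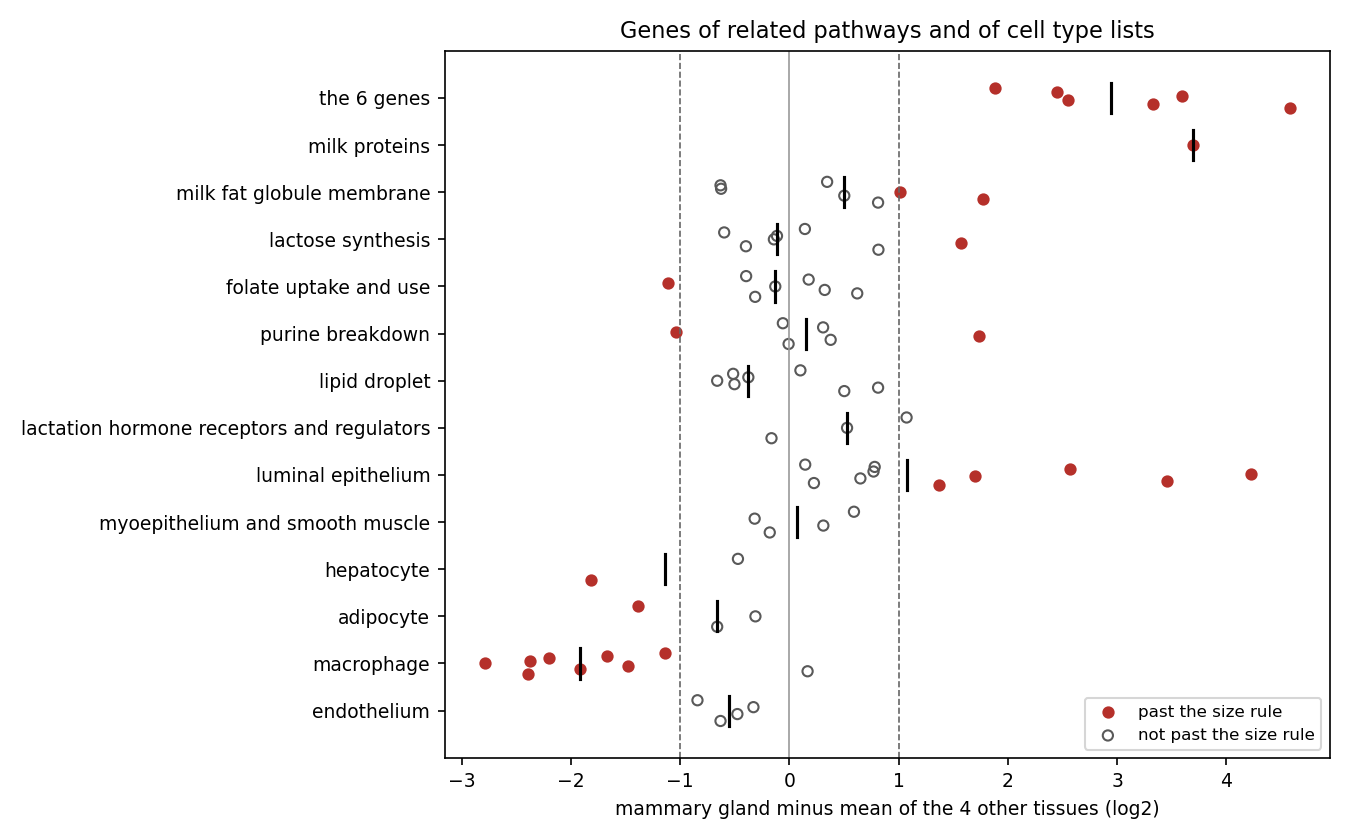
Difference of mammary gland minus the mean of the 4 other tissues (log2, horizontal axis) for each measured gene of the fixed lists, filled where past the 2-fold rule, with a bar at the list's median and dashed lines at 2-fold. The 6 genes lie between 1.88 and 4.58, while the lactose, folate, purine and lipid droplet lists have medians between -0.38 and 0.15.

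Marker lists of different cell types went in different directions in mammary gland. Of 10 measured markers of luminal epithelium 5 were past the rule above the mean of the 4 other tissues and none below (median 1.07, genes from 0.14 to 4.22), led by EHF, an epithelial transcription factor, at 4.22 ± 0.52 and the keratin KRT19 at 3.46 ± 0.46. ESRP1 at 2.57 ± 0.20, the cadherin CDH1 at 1.70 ± 0.31 and the keratin KRT8 at 1.37 ± 0.51 were the others, while KRT18 at 0.22 ± 0.00 and EPCAM at 0.65 ± 0.04 were under the rule. CDH1 was at 2.79 in mammary gland and 2.27 in subcutaneous adipose tissue, less than 2-fold apart. Against liver alone 5 were past the rule above and 1 below. The latter was KRT18 at -1.09 ± 0.09, with a level of -2.16 in mammary gland and -1.07 in liver. The median level of the list was 0.39 in mammary gland, against -0.39 in liver, -0.83 in mesenteric, -0.56 in omental and -0.65 in subcutaneous adipose tissue. The part of epithelial markers in the results of the 6 genes was not tested. Of 9 measured macrophage markers 8 were below (median -1.92), VSIG4 at -2.79 ± 0.22 and CD68 at -2.40 ± 0.20 the furthest, with a median level of 0.30 in mammary gland against 2.70 in subcutaneous adipose tissue. Of the hepatocyte list only TF (-1.82 ± 0.17) and APOA1 (-0.47 ± 0.33) were measured. TF was at -1.99 in mammary gland and 3.67 in liver. APOA1 was at 0.32 in mammary gland and 0.85 in liver, and was highest in subcutaneous adipose tissue, at 1.86. Of 3 measured adipocyte markers 1, CEBPA at -1.39 ± 0.41, was below (median -0.66), and their median level was -0.18 in mammary gland, against 1.63 in mesenteric, 1.52 in omental and -0.34 in subcutaneous adipose tissue. In the subcutaneous sample the median of these 3 markers was below the array median, unlike in the other depots. That sign rests on the centring. The markers split there, with LIPE at -0.34 and CAV1 at -0.55 but CEBPA at 1.12, against 1.13 for CEBPA in mesenteric adipose tissue. The part of adipocyte markers in the results of the 6 genes was not tested. Endothelial markers (0 of 4 in either direction, median -0.55) and those of myoepithelium and smooth muscle (0 of 4, median 0.06) were not past the rule, and no mesothelial marker was measured.

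Among themselves the 6 genes formed more than 1 pattern. Over the 10 arrays, which hold 5 RNA samples with both arrays of a tissue sharing their RNA, PLIN2 and B4GALT1 correlated at 0.97, MUC1 and B4GALT1 at 0.96 and XDH and FOLR1 at 0.91. MFGE8 and FOLR1 correlated at 0.27 and MFGE8 and XDH at 0.55. These are descriptions, and the mammary gland mean is the highest for all 6 genes. Gaps between dye orientations enter these correlations, such as that of XDH, 0.93 to 1.02 in all 5 tissues, and their part was not tested. The genes differed in liver, which was the lowest tissue for MFGE8, PLIN2 and B4GALT1 and the next after mammary gland for XDH, FOLR1 and MUC1.

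Genes of like pattern were sought among 458 named genes with a value on all 10 arrays and a range of tissue means of at least 2. Nearest to the mean of the 6 genes by Pearson correlation over the 10 arrays were SLC30A4, a zinc transporter (0.97), MED15, a subunit of the Mediator complex (0.96), SCNN1A, a subunit of the epithelial sodium channel (0.96), and EHF (0.95). AP2A2, a subunit of the clathrin adaptor AP-2 (0.95), BSPRY (0.95), MAPK13, a p38 kinase (0.95), and ESRP1, an epithelial splicing regulator (0.94), followed. Their own differences of mammary gland minus the mean of the other tissues ran from 1.83 ± 0.53 for MAPK13 to 4.22 ± 0.52 for EHF.

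Taken gene by gene, the nearest patterns differed. For MUC1 they were SCNN1A (0.99), BSPRY (0.99) and MAPK13 (0.98), each with the highest level in mammary gland. Against the mean of the other tissues their errors between dye orientations were 0.57, 0.71 and 0.53, and that of MUC1 was 0.87. All lay above the 95th percentile over named genes, 0.44. The correlation over 10 arrays includes such gaps between dyes, and their part in it was not tested. For PLIN2 they were B4GALT1 (0.97), SYT17 (0.96) and AGPAT1, an enzyme of glycerolipid synthesis (0.94). For B4GALT1 they were SLC30A4 (0.98), PLIN2 (0.97) and MUC1 (0.96). For XDH they were FOLR1 (0.91), ASB11 (0.91) and CDC42BPB (0.89), and for FOLR1 they were RDH11, a retinol dehydrogenase (0.93), ASB11 (0.92) and XDH (0.91). ASB11 had 3 clones, at 3.03, 3.60 and 1.28 for mammary gland minus the mean of the other tissues. For MFGE8 they were SALL4 (0.99), METTL9 (0.98) and GATA3, a transcription factor of luminal cells (0.97). The 2 clones of SALL4 disagreed, at 3.91 and -0.73 for mammary gland minus the mean of the other tissues, so that name is uncertain, and those of GATA3 stood at 2.72 and 0.64.

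**Figure D5:**
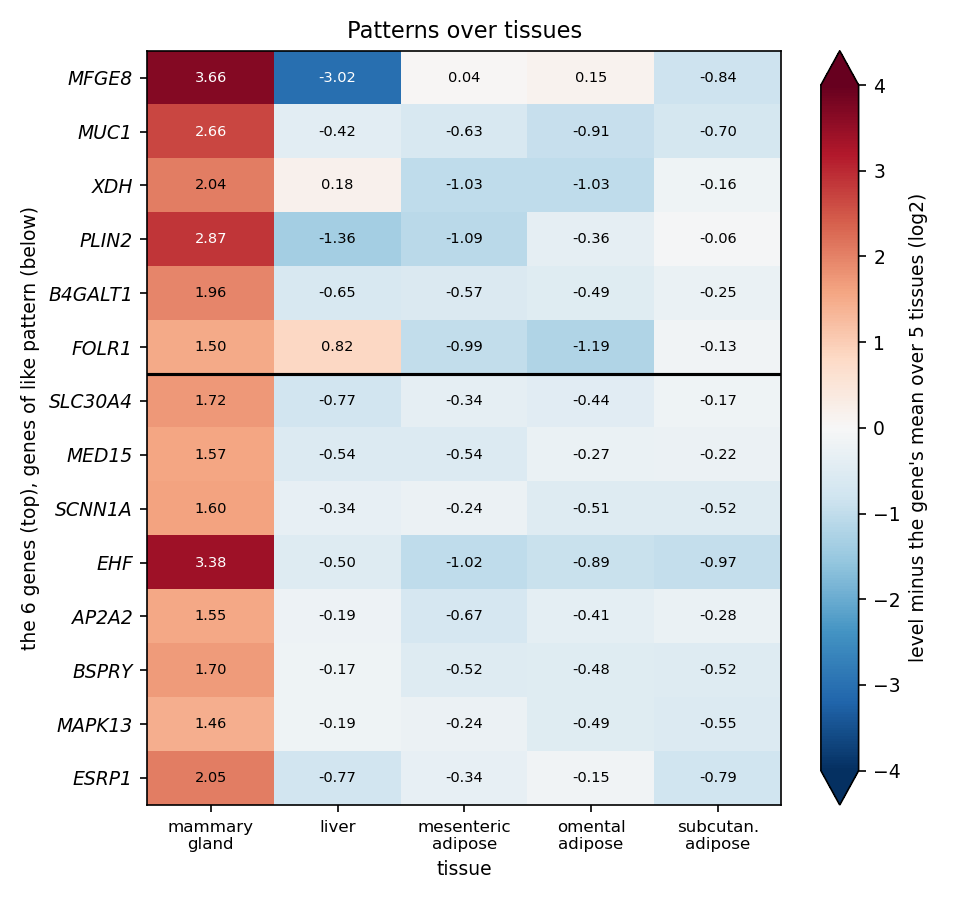
Level minus the gene's own mean over the 5 tissues (log2, colour and printed value) for the 6 genes above the line and the 8 genes of most like pattern below it. Mammary gland is the highest column in every row, and liver is the lowest for MFGE8 at -3.02 and above 0 for FOLR1 at 0.82 and XDH at 0.18.

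Of the genes that flank the 6 in the RefSeq gene order of assembly ARS-UCD2.0, no measured one was past the rule above the other tissues. PLIN2 had no measured neighbour. Of 36 protein-coding neighbours, 3 on each side, 10 were measured, with differences of mammary gland minus the mean of the other tissues from -1.24 to 0.66 and a median of -0.19. The 1 neighbour past the rule was ABHD2, next to MFGE8, at -1.24 ± 0.17, lower in mammary gland. In that comparison 6.25% of named genes were past the rule on that side and 2.41% on the other. FOLR2, next to FOLR1, stood at -0.31 ± 0.21.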

How the data were processed

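Each of 5 cow tissues was labelled with Cy3 on 1 array and Cy5 on the other, against a reference standard mixed from tissues, per the labels. The authors deposited 1 log2 dye ratio per spot, without intensities; the base is read from a ceiling of 16.61 (log2 of 100000), and the sources used here do not give scale, centring or direction. Deposited medians were -1.14 and -0.04 for mammary gland (Cy3 and Cy5), -0.65 and 0.03 for liver, -0.48 and -0.02 for mesenteric, -1.10 and -0.01 for omental, and -1.32 and 0.71 for subcutaneous adipose. Arrays of 1 tissue correlated between -0.78 and -0.66 and arrays of equal dye between 0.23 and 0.79, so the Cy3 arrays were turned in sign. On the omental array in Cy5 the labels disagree about the dye of the reference. It was taken with the tissue in Cy5, and its correlation with the other omental array is among those between -0.78 and -0.66.

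Values were centred on array medians, 94 ceiling values were set missing, and duplicate spots, clones of a gene and dye orientations were averaged (Python 3.11.15, pandas 2.3.3, numpy 2.4.6). The order of the annotation IDs differs from that of the spots, so 768 annotation layouts by 384 table layouts were searched. Clone pairs of 1 gene agreed best in 1 layout (mean cosine 0.48 on 444 pairs kept out of the search, against 0.08 for the next different layout), and plates 1 to 20 were kept. This named 5472 elements, of which 5467 matched RefSeq (ARS-UCD2.0). The annotation gives 10884 IDs 1 symbol, 186 several and 5346 none. The search and the 2-fold rule were tested on simulated data. For the search, the agreement between simulated clones was set by choice and not taken from these arrays.

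The 6 genes and all lists were chosen with earlier results of these data known. Genes of the pathway lists are named when past the rule against the mean of the 4 other tissues or among the 2 largest of their list; like genes are the 3 of highest correlation with each gene and the 8 with their mean. Marker lists are given as counts and medians. The single markers, FOLR2 as a relative of FOLR1, and ABHD2 were named after their values were seen. The alternatives concerned centring, dye, spots, clones, plates, ceiling, threshold and the omental array. No sequences are shown.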

Additional observations from a re-analysis of the deposited data

How the results depend on the processing

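The mammary gland mean was the highest for all 6 genes in every alternative that gives levels; with duplicate spots within 1 this set the Cy3 array of mammary gland alone against both arrays of other tissues for FOLR1. Differences moved by over 1 SD between dye orientations for 25 of 54 without centring, 23 of 54 after quantile normalisation, 11 of 36 without the omental array in Cy5, 6 of 54 with the median of clones and 1 of 48 with duplicate spots within 1. Values of 1 orientation lie within that SD by construction, and later plates changed 0 values. Of 462 recomputed differences, 0 past the rule changed sign; 10 under the rule, all between fat depots, did change sign. Against the mean of the 4 other tissues MUC1 ranged from 2.46 to 4.20, PLIN2 from 3.37 to 3.82, XDH from 2.51 to 3.15, B4GALT1 from 2.12 to 2.97 and FOLR1 from 1.78 to 2.26. MFGE8 against liver ranged from 6.26 to 7.11. FOLR1 against liver ranged from 0.57 to 1.41 and passed the rule after quantile normalisation, which made the count there 6. In that setting 11.5% of named genes passed against liver in either direction. Requiring duplicate spots within 1 removed FOLR1 from the mammary gland array in Cy5 and left 5 genes past the rule in each comparison with mammary gland. In these comparisons 8.34% to 13.5% of named genes then passed in either direction.

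For subcutaneous minus mesenteric and omental adipose the count was 0, and became 3 without centring (XDH 1.49, PLIN2 1.29, FOLR1 1.59), 1 after quantile normalisation (MFGE8 -1.10), 1 on Cy5 arrays alone (FOLR1 1.19) and 1 without the omental array in Cy5 (XDH 1.11). The share of named genes past the rule in either direction was 9.95%, against 20.7% without centring and 11.4% after quantile normalisation. For mesenteric minus omental adipose the count was 0, where 1.41% of named genes passed, and 1 without centring, where 2.14% passed. The order of the 5 tissues was as reported for 2 of the 6 genes without centring and for 3 on Cy3 arrays alone. Without centring the median of all genes shifted to 0.22 for mammary gland minus liver, 0.30 minus mesenteric and -0.50 minus subcutaneous adipose, to -0.32 for liver minus the depots, and to 0.64 and -0.33 for the comparisons between depots; the causes were not tested. No paired analysis was possible because each tissue is 1 RNA sample.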
